A study of Mus musculus with 13 samples.

Results

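The leukocyte adhesion molecules examined here were 7 genes taken by symbol from the gene count table of a mouse lung study: the selectins Sele and Selp, the selectin ligand Selplg, the integrin ligands Vcam1, Icam1 and Icam2, and the junctional molecule Pecam1. They were 7 of 54513 genes in the table, and all 7 were among the 20468 genes that passed the filter on low counts. Total RNA was sequenced from formalin-fixed, paraffin-embedded lung of male C57Bl/6 mice aged 7 to 8 weeks, 21 days after bleomycin, a DNA-damaging drug that injures the alveoli and is used to model lung fibrosis. Bleomycin batch 1 held 4 libraries (replicates 5 to 8), bleomycin batch 2 held 4 libraries (replicates 1 to 4) and saline held 5 libraries, all in batch 1. Each library came from a single 10 µm coronal section and 8 ng of RNA, so it sampled 1 plane of the lung, and no genetic change was labelled in any group. What the batch label marks was not stated. Because batch 2 had no saline library, the test against saline was made within batch 1, and batch 2 values are given beside it.

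Leukocytes leave the blood in steps. Selectins on activated endothelium catch them by carbohydrate ligands such as PSGL-1, the product of Selplg. Integrins on the leukocyte then bind VCAM-1 and ICAM-1, and the cell crosses junctions where PECAM-1 sits. ICAM-2 and PECAM-1 are carried by resting endothelium, whereas inflammatory cytokines induce E-selectin, VCAM-1 and ICAM-1. In the lung ICAM-1 is also carried by alveolar type 1 cells, P-selectin and PECAM-1 also by platelets, and PSGL-1 mainly by leukocytes.

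Library totals were 21727502 to 28885129 counts in bleomycin batch 1, 6337147 to 12982422 in bleomycin batch 2 and 9527580 to 26043735 in saline. Bleomycin replicate 8 had a title calling it a control, while its treatment label and library name said bleomycin. Its Col1a1 level was 3982 CPM (counts scaled by library total and TMM factor), inside the 928 to 4061 CPM of the other bleomycin libraries and above the 215 to 324 CPM of saline. It was kept as bleomycin. With it counted as saline, 1 of the 7 genes, Icam2, was still called. Nothing beyond the sample labels said that each library was a separate animal, and the p-values cover no more than the spread between libraries, which may be technical. In whole-lung RNA, fewer cells of a type and less RNA per cell cannot be told apart.

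In bleomycin batch 1 against saline, Selp, Selplg, Vcam1 and Icam1 rose, Icam2 and Pecam1 fell, and Sele did not pass the test (edgeR quasi-likelihood, Benjamini-Hochberg adjusted p under 0.05 over all tested genes). Calls in either direction made up 30.9% of all tested genes, with 17.5% higher and 13.4% lower. Of the members, 5 had batch 1 bleomycin and saline libraries that did not overlap in CPM, against a background of 25.3% of tested genes. The same 5 did not overlap between batch 2 bleomycin and saline, where the background was 28.1%. The median log2 change was 1.26 over the 7 members and 0.03 over all tested genes. The 10th and 90th percentiles of all tested genes were -1.11 and 1.00. These counts describe the members and nothing is read from them, because the members were chosen with earlier results of these data known.

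**Figure D1:**
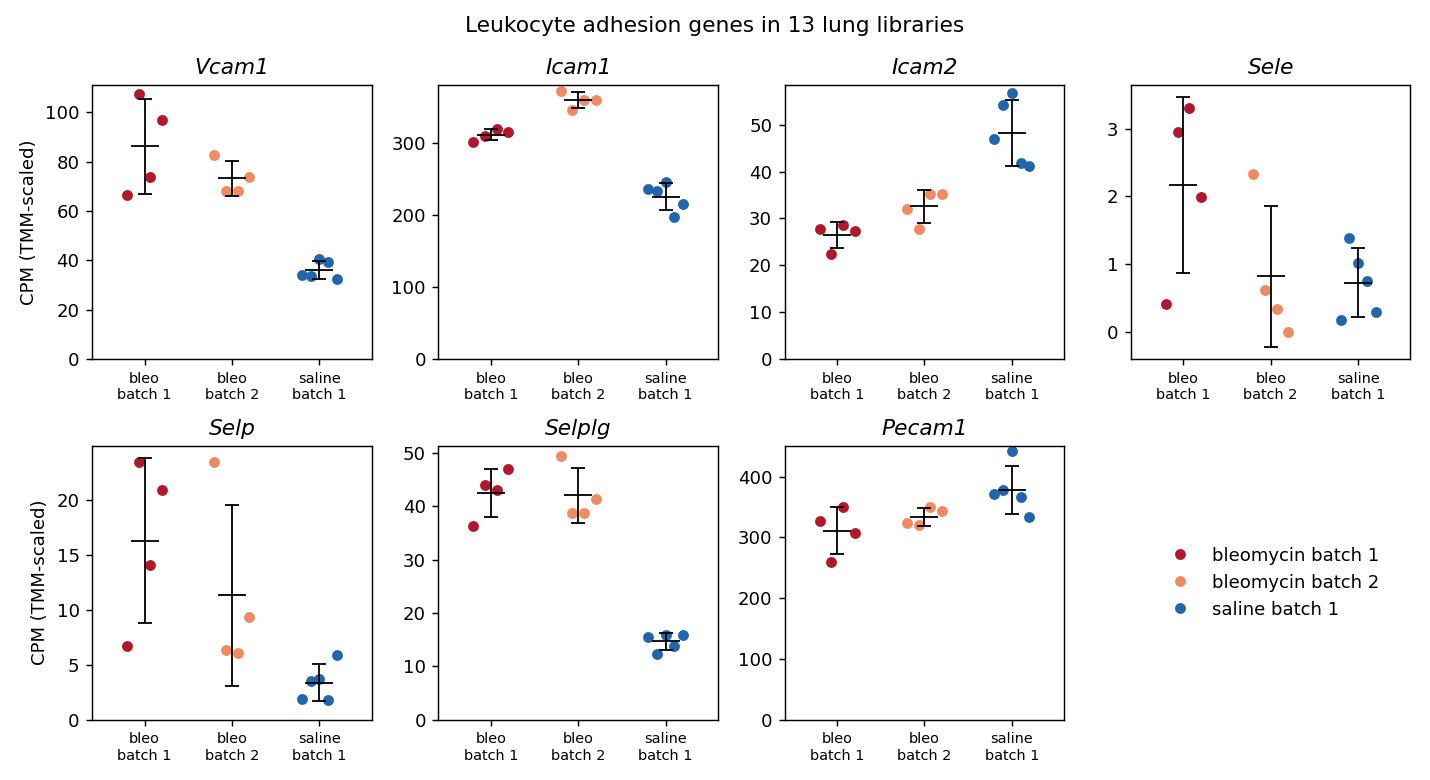
CPM of the 7 genes in each of the 13 libraries (points, in order of replicate number) for bleomycin batch 1, bleomycin batch 2 and saline, with the group mean and SD in black and a linear axis per gene. All 8 bleomycin libraries lay above all 5 saline libraries for Vcam1, Icam1, Selp and Selplg and below them for Icam2, while the groups overlapped for Sele and Pecam1.

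P-selectin, stored in endothelial Weibel-Palade bodies and platelet granules and released to the surface on activation, showed the largest fitted change of the 7. Selp levels were 6.67, 23.4, 14.1 and 20.9 CPM in bleomycin batch 1, 23.4, 6.32, 6.09 and 9.37 CPM in bleomycin batch 2, and 1.88, 3.48, 3.72, 1.76 and 5.88 CPM in saline. Every bleomycin library was above every saline library, but the lowest of batch 2, at 6.09 CPM, was close to saline replicate 5 at 5.88 CPM. The batch 1 change was 2.29 on the log2 scale (SE 0.50), a 4.91-fold difference (edgeR, adjusted p = 0.00435). The bleomycin libraries differed widely among themselves, with a coefficient of variation of 46.2% in batch 1 and 72.7% in batch 2, against 50.2% in saline. Of 9 tested platelet genes, edgeR called 0 in either direction (Gp6, Tubb1, Gp5 and Gp1ba had log2 values between -1.34 and -0.85), while limma-voom called 4 lower and DESeq2 2 lower. The rest, named after their values were seen, were Treml1 (-0.93), Ppbp (-0.56), Itga2b (0.06), Gp9 (0.08) and Pf4 (0.10). With an unadjusted edgeR p under 0.05 there were 2, Gp6 and Tubb1, against 8490 of all 20468 tested genes. Without bleomycin replicate 5 edgeR called 4 platelet genes lower. The summed platelet level was 17.4 to 33.2 CPM in bleomycin batch 1, 17.3 to 29.2 CPM in bleomycin batch 2 and 25.3 to 42.3 CPM in saline.

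E-selectin, made by cytokine-activated endothelium, was the least abundant member and the only one with no call. Sele had 10, 85, 84 and 49 counts in bleomycin batch 1, 14, 6, 4 and 0 counts in bleomycin batch 2, and 4, 12, 28, 12 and 4 counts in saline. That corresponds to 0.412, 2.95, 3.31 and 1.99 CPM in batch 1, 2.32, 0.612, 0.338 and 0 CPM in batch 2, and 0.170, 1.39, 1.02, 0.754 and 0.294 CPM in saline. The groups overlapped: 3 of the 4 batch 1 libraries were above all saline libraries, and replicate 5 was not. The count of 0 in batch 2 replicate 4 allows up to 0.439 CPM (3 counts, counting error only). That limit takes counts as independent and is too low if both reads of a pair were counted. The batch 1 change was 1.61 on the log2 scale with an SE of 0.78 (edgeR, adjusted p = 0.130) and was not detectable at this depth and spread. Sele was called under none of its 21 alternative settings, where the log2 change ran between 1.10 and 1.96. The lowest came with no batch term, which pooled both bleomycin batches against saline.

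Sele and Selp lie near each other on chromosome 1, and Icam1 lies on chromosome 9. Their promoter windows are shown because in mice all 3 genes are known to be induced by cytokines and because the table of RefSeq windows held these 3 of the 7 members. Each run is the 250 bases before the RefSeq start on the plus strand of GRCm38.p6 (the counts were made on mm39), at chr1:164047984-164048233 for Sele, chr1:164115014-164115263 for Selp and chr9:21015690-21015939 for Icam1. Capitals mark matches to the AP-1 motif TGANTCA or the TATA motif TATAAA.
Sele: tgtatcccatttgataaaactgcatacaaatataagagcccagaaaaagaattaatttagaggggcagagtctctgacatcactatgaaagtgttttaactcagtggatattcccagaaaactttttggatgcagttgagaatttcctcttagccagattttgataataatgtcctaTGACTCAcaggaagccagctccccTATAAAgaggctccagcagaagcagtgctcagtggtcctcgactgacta
Selp: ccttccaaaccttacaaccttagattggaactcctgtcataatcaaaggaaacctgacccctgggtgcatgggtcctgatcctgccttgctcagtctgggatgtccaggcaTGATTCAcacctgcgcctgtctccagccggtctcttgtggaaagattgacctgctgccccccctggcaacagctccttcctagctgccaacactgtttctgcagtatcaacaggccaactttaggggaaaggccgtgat
Icam1: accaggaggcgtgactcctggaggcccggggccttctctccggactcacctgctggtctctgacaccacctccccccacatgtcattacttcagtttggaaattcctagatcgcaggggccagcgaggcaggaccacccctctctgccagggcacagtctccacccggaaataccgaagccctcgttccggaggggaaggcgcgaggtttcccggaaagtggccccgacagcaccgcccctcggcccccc
The Sele window held an AP-1 match 73 to 67 bases before the start and a TATA match 49 to 44 bases before it. The Selp window held an AP-1 match 139 to 133 bases before the start, and the Icam1 window held neither motif. An AP-1 match was present in 6.75% and a TATA match in 12.4% of 32851 mouse promoter windows of 250 bases, with both strands searched and no overlap between the matches shown. The NF-kB consensus, found in 7.25% of windows, had no match in these 3, which says only that its letters are not in these bases. The GC content was 40.4% for Sele, 53.6% for Selp and 65.2% for Icam1.

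PSGL-1 is the main leukocyte ligand of P-selectin and also binds E-selectin. Selplg levels were 36.2, 43.9, 43.1 and 46.9 CPM in bleomycin batch 1, 49.5, 38.7, 38.7 and 41.3 CPM in bleomycin batch 2, and 15.4, 12.3, 15.8, 13.9 and 16.0 CPM in saline. The groups were far apart and tight within themselves. The batch 1 change was 1.53 on the log2 scale (SE 0.12), 2.89-fold (edgeR, adjusted p = 7.78e-07). Leukocyte markers moved the same way: 9 of 10 rose, with the lowest p-values for Coro1a, Lcp1, Ptprc and Vav1 at log2 changes of 1.84, 1.15, 1.20 and 1.81, and their summed level was 853 to 1157 CPM in bleomycin batch 1, 829 to 1035 CPM in bleomycin batch 2 and 393 to 501 CPM in saline. As a percentage of that sum, Selplg stood at 4.09 ± 0.37% in bleomycin batch 1 (SD, n = 4), 4.45 ± 0.33% in bleomycin batch 2 (n = 4) and 3.33 ± 0.32% in saline (n = 5). Relative to the leukocyte markers the batch 1 and saline libraries overlapped, and the batch 2 libraries were above saline. The part of leukocyte number in the Selplg change was not tested.

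VCAM-1 binds the integrins α4β1 and α4β7 on lymphocytes, monocytes and eosinophils. Vcam1 levels were 66.6, 107, 74.0 and 96.8 CPM in bleomycin batch 1, 82.7, 67.9, 68.1 and 74.0 CPM in bleomycin batch 2, and 34.1, 33.5, 40.4, 39.2 and 32.3 CPM in saline. The lowest bleomycin library exceeded the highest saline library by a wide margin, and replicates 6 and 8 stood highest. The batch 1 change was 2.40-fold (log2 1.26, SE 0.13; edgeR, adjusted p = 5.45e-06). Vcam1 is also made by some macrophages and fibroblasts. Macrophage markers rose in 6 of 7 cases, with Cd68, C1qb, Adgre1 and C1qa at log2 changes of 1.75, 2.90, 1.66 and 2.87, and their sum was 393 to 813 CPM in bleomycin batch 1, 477 to 790 CPM in bleomycin batch 2 and 217 to 233 CPM in saline. Fibroblast markers rose in 4 of 6 cases (Col1a1, Col3a1, Col1a2 and Lum, log2 3.23, 2.68, 2.50 and 0.85), while Pdgfra (0.18) and Dcn (-0.01) did not pass. Relative to the summed leukocyte markers, Vcam1 was 8.25 ± 1.45% in bleomycin batch 1, 7.75 ± 0.43% in bleomycin batch 2 and 8.18 ± 1.05% in saline (SD), and the groups overlapped. Which cells carried the Vcam1 change was not tested.

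ICAM-1 binds the β2 integrins LFA-1 and Mac-1. Icam1 levels were 302, 310, 319 and 315 CPM in bleomycin batch 1, 372, 346, 361 and 360 CPM in bleomycin batch 2, and 236, 234, 246, 198 and 215 CPM in saline. The change was small but the libraries were close together, with a coefficient of variation of 2.41% in batch 1, 3.02% in batch 2 and 8.49% in saline, and no bleomycin library reached down to saline. The batch 1 difference was 1.38-fold (log2 0.47, SE 0.08; edgeR, adjusted p = 0.000395). The alveolar type 1 markers were mixed. In batch 1 Hopx, Rtkn2 and Ager fell by 1.41, 1.22 and 0.56 on the log2 scale, while Aqp5 (-0.30) and Pdpn (0.29) did not pass. Hopx and Rtkn2 averaged below saline in both bleomycin batches. Ager libraries of batch 1 overlapped saline, and batch 2 averaged 630 CPM against 565 CPM in saline. Aqp5 averaged 135 CPM in batch 2 and 120 CPM in saline. Their summed level was 654 to 988 CPM in bleomycin batch 1, 965 to 1348 CPM in bleomycin batch 2 and 1204 to 1565 CPM in saline.

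ICAM-2, a ligand of LFA-1 found on resting endothelium and platelets, went opposite to ICAM-1. Icam2 levels were 27.6, 22.4, 28.6 and 27.4 CPM in bleomycin batch 1, 32.1, 27.9, 35.2 and 35.1 CPM in bleomycin batch 2, and 47.1, 54.2, 56.8, 41.7 and 41.2 CPM in saline. All bleomycin libraries were below all saline libraries, and Icam2 fell by 0.86 on the log2 scale in batch 1 (SE 0.13; edgeR, adjusted p = 0.000111). Per kilobase of exon, the Icam1 to Icam2 ratio within a library was 5.18 ± 0.58 in bleomycin batch 1, 4.86 ± 0.47 in bleomycin batch 2 and 2.06 ± 0.18 in saline (SD). The ratio's ranges, 4.77 to 6.04 and 4.47 to 5.42 in the bleomycin batches against 1.88 to 2.28 in saline, did not overlap.

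PECAM-1 (CD31) holds endothelial junctions together by binding itself and serves transmigration, and it is also on platelets and some leukocytes. Pecam1 levels were 328, 260.3, 350.3 and 308 CPM in bleomycin batch 1, 323, 319.8, 349.8 and 343 CPM in bleomycin batch 2, and 372, 377, 442, 366 and 334 CPM in saline. The groups overlapped, since the lowest saline library was below bleomycin replicates 3, 4 and 7. Pecam1 fell by 0.28 on the log2 scale in batch 1 (SE 0.10; edgeR, adjusted p = 0.0417). The adjusted p was close to the threshold. It exceeded 0.05 at a similar log2 change on leaving out batch 2 bleomycin replicate 1, 2 or 4 (each -0.27), which are not in the contrast, on leaving out saline replicate 1 (-0.29), and with batch 1 libraries alone (-0.32, adjusted p = 0.0521). It also exceeded 0.05 at a smaller change without bleomycin replicate 6 (-0.20, adjusted p = 0.143) or saline replicate 3 (-0.23, adjusted p = 0.102).

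**Figure D2:**
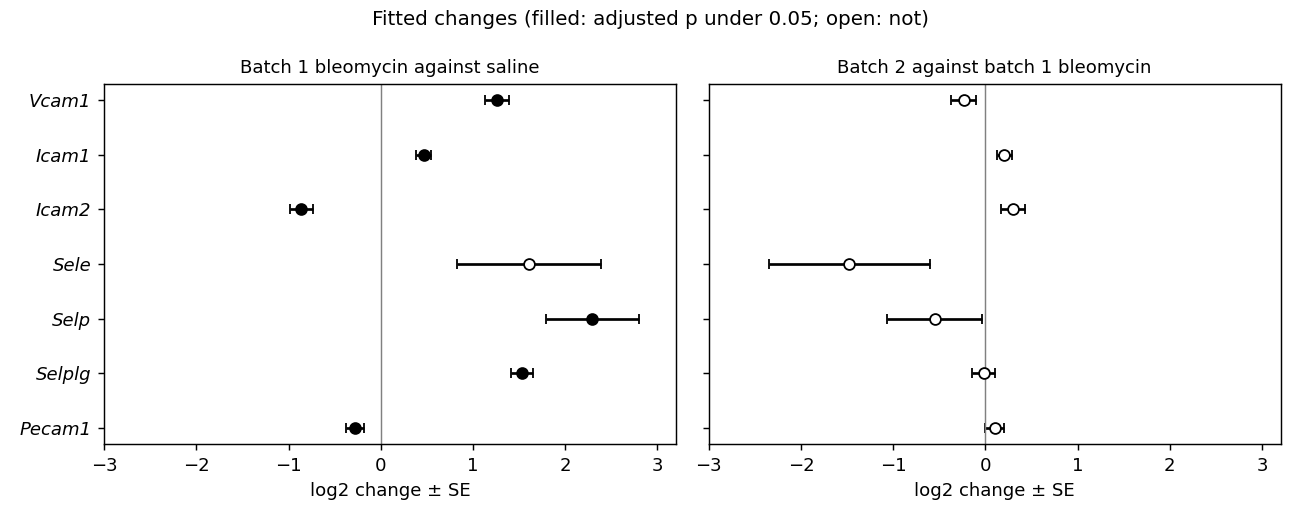
Fitted log2 change ± SE (horizontal axis) of each gene in batch 1 bleomycin against saline (left) and batch 2 against batch 1 bleomycin (right), filled where the edgeR adjusted p was under 0.05. On the left 4 genes were higher and 2 lower, with Sele open at 1.61 and a wide error, and on the right all 7 were open.

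Between batches, 0 of the 7 members were called in batch 2 against batch 1 bleomycin by edgeR, DESeq2 or limma-voom, where edgeR called 1.68% of tested genes. By edgeR, 2 members had an unadjusted p under 0.05, as did 2995 of all 20468 tested genes. Icam1 averaged 360 ± 10.9 CPM in batch 2 and 312 ± 7.50 CPM in batch 1 (SD, n = 4 each), and every batch 2 library was higher (log2 0.21, SE 0.08; adjusted p = 0.250). Icam2 averaged 32.6 ± 3.48 CPM in batch 2 and 26.5 ± 2.80 CPM in batch 1, with overlapping libraries (log2 0.30, SE 0.13; edgeR, adjusted p = 0.306). Among the alveolar type 1 markers, Ager was called higher in batch 2 (log2 0.72; edgeR, adjusted p = 0.0291). The selectins had lower fitted values in batch 2, at -0.55 for Selp and -1.48 for Sele on the log2 scale, with SEs of 0.52 and 0.87. Without bleomycin replicate 1, the highest of batch 2, they were -1.18 for Selp and -2.67 for Sele, still with no call. Such errors leave wide room for a difference in either gene. Batch 2 was also the shallowest set of libraries, and batch and depth cannot be told apart in this comparison.

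Levels of different genes were set side by side per kilobase of exon, using exon lengths of the GENCODE M21 annotation. In bleomycin batch 1 the order of mean CPM per kilobase was Icam1 71.5, Pecam1 50.0, Icam2 13.9, Selplg 9.95, Vcam1 9.71, Selp 3.69 and Sele 0.744. The neighbours Selplg and Vcam1 overlapped in that group, and the other neighbours did not. Bleomycin batch 2 had the same order, with 82.5 for Icam1 and 53.6 for Pecam1 and no overlap between them. In saline the order began with Pecam1 at 60.8 and Icam1 at 51.8, whose ranges of 53.7 to 71.0 and 45.3 to 56.4 overlapped, followed by Icam2 at 25.3, Vcam1 at 4.05, Selplg at 3.44, Selp at 0.758 and Sele at 0.249. Icam1 was thus first in both bleomycin batches without overlap, whereas the first place was not separated in saline.

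The 13 endothelial markers gave a second scale for the endothelial members. In batch 1 against saline Tek, Ptprb, Kdr and Eng fell, by 0.80, 0.77, 0.55 and 0.52 on the log2 scale, Sox17, named after its value was seen, rose by 0.40, and the other 8 did not pass. The Sox17 call was lost under RLE and upper quartile scaling, with DESeq2, limma-voom or batch 1 libraries only, and on leaving out any 1 saline library or bleomycin replicate 3, 4, 5 or 8. The count lower ran from 3 to 5 on leaving out 1 library. With bleomycin replicate 8 counted as saline, 0 of these markers were called higher and 0 lower. The summed level was 1791 to 2365 CPM in bleomycin batch 1, 1976 to 2221 CPM in bleomycin batch 2 and 2605 to 3163 CPM in saline. As a percentage of this sum, Icam1 was 15.5 ± 1.95% in bleomycin batch 1, 16.8 ± 0.62% in bleomycin batch 2 and 8.03 ± 0.54% in saline (SD). Vcam1 was 4.36% (2.81 to 5.99%) in bleomycin batch 1, 3.41% (3.08 to 3.80%) in bleomycin batch 2 and 1.28% (1.15 to 1.50%) in saline. Selp was 0.841% (0.282 to 1.31%) in bleomycin batch 1, 0.523% (0.275 to 1.08%) in bleomycin batch 2 and 0.120% (0.0630 to 0.217%) in saline. All 3 had no overlap between bleomycin and saline, as in CPM. The scale mattered for Icam1: as a percentage of the summed leukocyte markers it was 30.2 ± 3.76% in bleomycin batch 1, 38.3 ± 3.63% in bleomycin batch 2 and 51.2 ± 2.48% in saline, lower in both bleomycin batches without overlap. On that leukocyte scale Selp was 1.52 ± 0.63% in bleomycin batch 1, 1.15 ± 0.75% in bleomycin batch 2 and 0.759 ± 0.39% in saline, and the groups overlapped. Icam2 and Pecam1 were lower on the leukocyte scale in both bleomycin batches, without overlap. On the endothelial scale these 2 members, carried by resting endothelium, separated less fully than Icam1, Vcam1 and Selp. Pecam1 was 15.4 ± 1.48% in bleomycin batch 1, 15.6 ± 0.56% in bleomycin batch 2 and 13.5 ± 0.97% in saline, with batch 1 overlapping saline and batch 2 above it. Icam2 was 1.31 ± 0.12% in bleomycin batch 1, 1.51 ± 0.09% in bleomycin batch 2 and 1.71 ± 0.23% in saline, with batch 1 below saline and batch 2 overlapping it.

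Ptprb alone made up 33.9% of the endothelial sum in bleomycin batch 1, 32.3% in bleomycin batch 2 and 41.7% in saline, so the ratios were repeated over the other 12 markers, a choice made after its share was seen. Pecam1 then stood at 23.2 ± 1.74% in bleomycin batch 1, 23.0 ± 1.02% in bleomycin batch 2 and 23.1 ± 1.66% in saline. Icam2 stood at 1.98 ± 0.15% in bleomycin batch 1, 2.24 ± 0.14% in bleomycin batch 2 and 2.94 ± 0.39% in saline, and both bleomycin batches were below saline without overlap. Icam1, Vcam1 and Selp remained above saline without overlap, at 1.71, 3.02 and 6.24 times the saline mean in bleomycin batch 1.

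**Figure D3:**
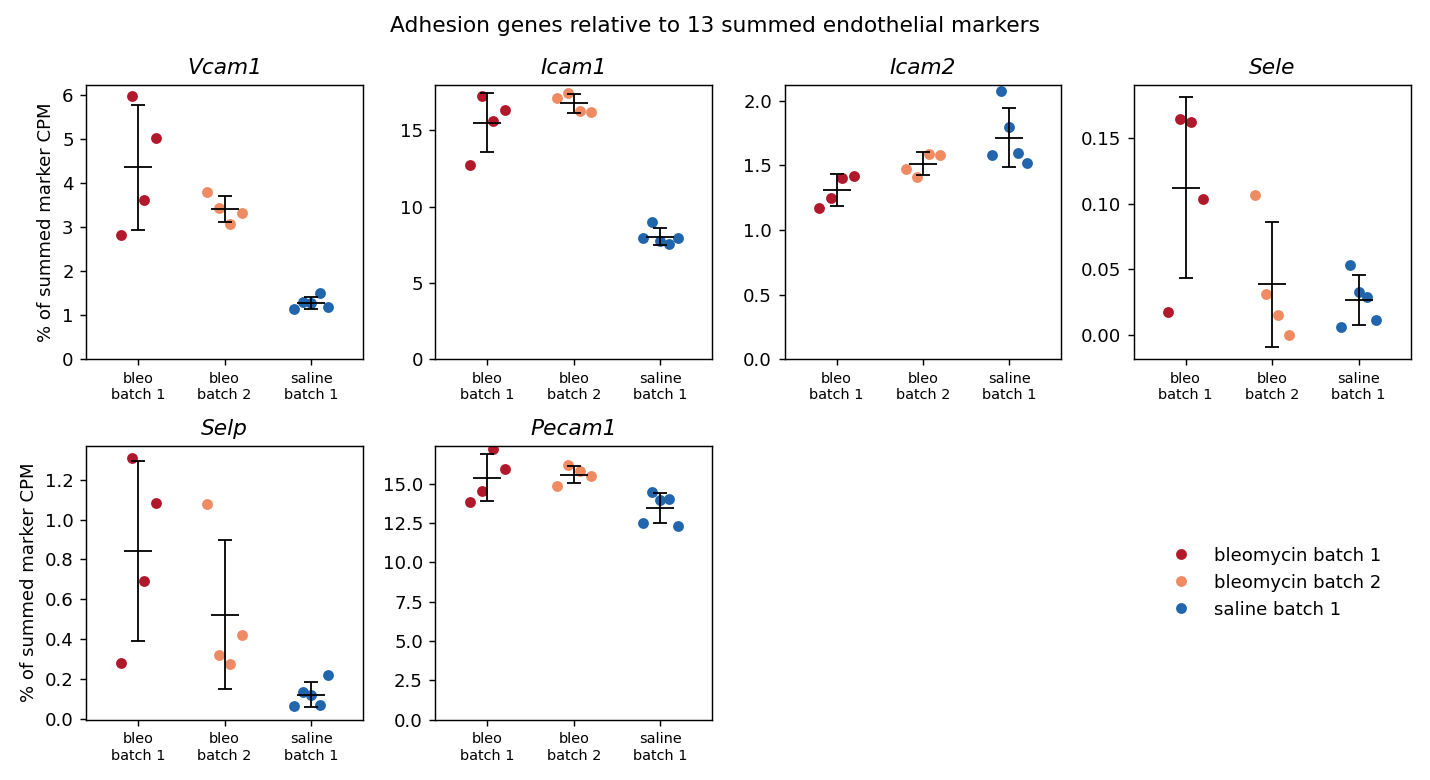
Level of 6 of the genes as a percentage of the summed CPM of 13 endothelial markers in the same library (vertical axis, linear), by group, with points for libraries and the mean and SD in black. Vcam1, Icam1 and Selp were higher in every bleomycin library than in saline, Icam2 was lower in batch 1, and Pecam1 lay between 12.3% and 17.2% throughout.

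The venous markers bear on the selectins and Vcam1, since postcapillary venules are where these molecules act in most tissues. Of 5 genes, 2 rose in batch 1: Ackr1, a chemokine-binding receptor of venules, with a log2 change of 3.27 (SE 0.50; edgeR, adjusted p = 0.000161), and Vwf, which shares the Weibel-Palade body with P-selectin, with 0.83 (SE 0.19; adjusted p = 0.00397). Ackr1 was low, at 2.29 to 5.16 CPM in bleomycin batch 1 and 0.0852 to 0.503 CPM in saline. The Vwf libraries of batch 1 and saline overlapped. Nr2f2 (0.08), Ephb4 (0.02) and Slco2a1 (0.00) did not pass. The summed venous level was 986 to 1569 CPM in bleomycin batch 1, 1176 to 1627 CPM in bleomycin batch 2 and 944 to 1192 CPM in saline, and its part in the Selp result was not tested.

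The counter-receptors on leukocytes were higher in 11 of 13 cases and lower in 0, with a median log2 change of 0.93. The partners of ICAM-1 and ICAM-2 included Itgb2 (1.91, SE 0.16) and Itgax (1.96, SE 0.15), and, named after their values were seen, Itgal (0.61) and Itgam (1.83), all called. The partners of VCAM-1 included Itga4, which rose by 0.92 (SE 0.12, edgeR adjusted p = 4.75e-05). Itgb1, named for that role, was at 0.27 (edgeR adjusted p = 0.0832). Itgb7, named for the same role after its value was seen, rose by 1.37 (SE 0.19, edgeR adjusted p = 6.14e-05). Cd177, a neutrophil surface protein that binds PECAM-1 in humans, rose by 3.28 (SE 0.38; edgeR, adjusted p = 5.06e-05). Other neutrophil markers were low: Retnlg rose by 1.20, S100a8 (0.70), S100a9 (0.43) and Cxcr2 (0.56) did not pass, and Ly6g and Mpo were under the filter with 3 and 12 counts over all libraries. The neutrophil sum was 15.7 to 62.3 CPM in bleomycin batch 1, 16.7 to 59.8 CPM in bleomycin batch 2 and 11.2 to 30.2 CPM in saline.

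Genes that build or carry selectin ligands were mixed, with 4 higher, 1 lower and 6 not called of 11 (median 0.26). The sialyltransferases moved apart: St3gal4 rose by 0.82 and St3gal6 fell by 0.80 on the log2 scale (SE 0.15 and 0.14). Gcnt1, which makes the core O-glycan branch of PSGL-1, rose by 0.85, and the galactosyltransferase gene B4galt1 by 0.55. The count higher dropped to 2 without bleomycin replicate 8, saline replicate 2 or saline replicate 4.

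Among other endothelial adhesion and transmigration genes, 4 of 13 tested rose and 0 fell (median 0.24), though DESeq2 called 2 lower and upper quartile scaling 1 lower. They were Nectin2 (0.75), Ackr1, Cd34 (0.58) and Mcam (0.53). Cdh5, the cadherin of endothelial junctions, was named after its value was seen and did not pass (-0.16). Madcam1 and Icam4 were under the filter.

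In a list of cytokine, receptor and NF-kB pathway genes, 13 of 15 tested were higher and 0 lower (median 1.15). The list was not limited to inducers of the members. The count higher ran from 10 to 14 on leaving out 1 library. It was 10 with the replicate block, whose bleomycin libraries were mostly of batch 2, and 2 with bleomycin replicate 8 counted as saline. The lowest p-values were those of Nfkb2, Relb, Tnfrsf1b and Tnfaip3, with log2 changes of 1.36, 1.64, 1.54 and 1.40. Rel, singled out after its value was seen, was the 1 gene of the list called between batches, lower in batch 2 bleomycin (-0.73; edgeR, adjusted p = 0.0138). Il4 and Il13 were under the filter, with 19 and 6 counts over all libraries. Of the proteases that shed these proteins from the cell surface, Adam8 (1.38), Adam17 (0.88) and Adam10 (0.35) rose and Mmp9 (0.37) did not pass, and Elane and Ctsg were under the filter. RNA levels do not show how much protein was shed.

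**Figure D4:**
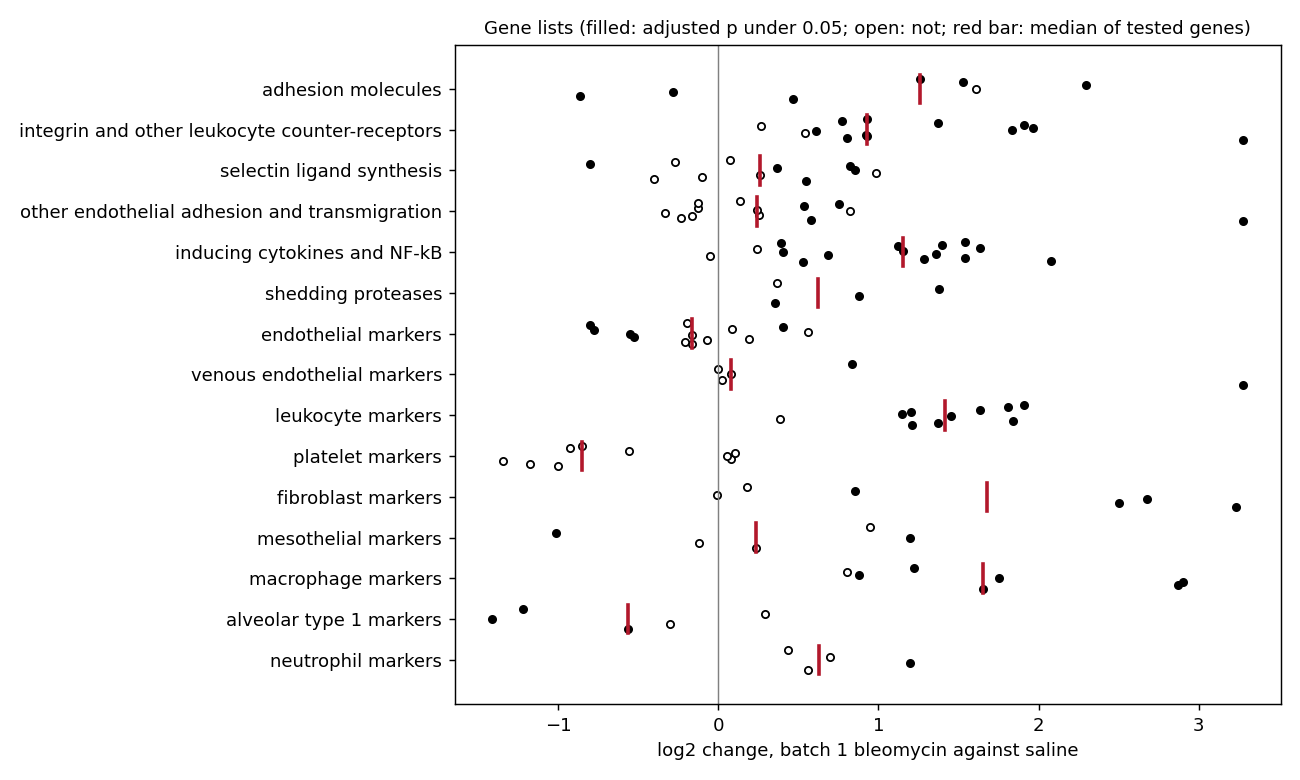
Fitted log2 change in batch 1 bleomycin against saline (horizontal axis) of every tested gene in each list (points, filled where the edgeR adjusted p was under 0.05), with the list median as a red bar. Counter-receptors, cytokine and NF-kB genes and leukocyte markers had medians of 0.93, 1.15 and 1.41, while endothelial markers had -0.16 and alveolar type 1 markers -0.56.

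Genes most alike to each member over the 13 libraries were found by Pearson correlation of log2 CPM among 12011 genes averaging 5 CPM or more (12012 for Sele), given without a p because the libraries share treatment, batch and depth. Vcam1 was closest to Eln (0.98), Serpina3n (0.98) and Mmp14 (0.98), and Icam1 was close to Phldb2 (0.98) and Lcn2 (0.98). Selplg was closest to Plcg2 (0.99), Cyth4 (0.99) and Cotl1 (0.99), and Selp to Sat1 (0.96), Coro1c (0.95) and Slc41a2 (0.95). Icam2 was closest to Acvrl1 (0.96), Slc9a3r2 (0.95) and Rasgef1a (0.95), and Pecam1 to St3gal2 (0.90), Miga1 (0.88) and Flvcr2 (0.88). Sele was closest to Cebpb (0.88), Slc35a2 (0.88) and Ap1s2 (0.87).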

How the data were processed

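Total RNA libraries of 13 lung sections were analysed. The authors deposited whole-number counts per gene symbol without normalization; the submitters' processing notes name cutadapt 4.4, STAR 2.7.10b, featureCounts 2.0.3, DESeq2 1.42.1 and build mm39. No source used here gives the part each tool played, the annotation release or the strand setting. Of the counts between 1 and 10, even ones were 78.4% to 86.1% in a library, so both reads of a pair may have been counted, and intervals and limits cover counting error only. Without a known strand setting, reads of overlapping antisense genes cannot be told apart, but these held few counts: 48 for Gm43109 at Vcam1, 170 for Gm47079 at Icam1, and 10 and 36 for Gm16587 and Gm16548 at Selp. The deposited normalized table was not used, and 0 columns of per-sample values were unmapped.

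All genes were fitted in edgeR 4.0.16 under R 4.3.3 (filterByExpr, TMM, robust glmQLFit and glmQLFTest) with 3 group means, 1 for each of batch 1 bleomycin, batch 2 bleomycin and saline, and Benjamini-Hochberg adjustment over 20468 genes. Alternatives used DESeq2 1.42.0, limma 3.58.1, other scalings, samples and a replicate block. An alternative with no batch term pooled both bleomycin batches against saline. Libraries of one group were not duplicates (chi-square per degree of freedom 10.1 to 267 over 22 pairs). Levels are CPM from TMM-scaled totals; log2 CPM used a prior count of 2. Gene lengths and overlaps came from GENCODE M21, on another build, so no coordinates of it are printed.

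The genes named are the members, up to 4 per list by lowest p and every gene of a list with 6 or fewer tested, and 3 like genes per member with a mean of at least 5 CPM, leaving out predicted models (1 gene that the rule named is not reported here); further names are said to be later choices. The members and lists were chosen with earlier results of these data known. The lists were leukocyte counter-receptors, selectin ligand synthesis, other endothelial adhesion, inducing cytokines and NF-kB, shedding proteases, and markers of endothelium, venous endothelium, leukocytes, platelets, fibroblasts, mesothelium, macrophages, alveolar type 1 cells and neutrophils. Of the mesothelial markers, Msln was higher (1.20), Upk3b lower (-1.02), and Wt1 (0.94), Lrrn4 (-0.12) and Krt19 (0.24) did not pass.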

Additional observations from a re-analysis of the deposited data

How the results depend on the processing

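The direction of each member's change in batch 1 bleomycin against saline was the same under all alternatives run. Some of these took batch 2 bleomycin libraries into the contrast. Icam2 was called under each alternative, and Sele under none. The other calls were lost with bleomycin replicate 8 counted as saline: log2 changes (adjusted p) were 0.84 (0.124) for Vcam1, 0.37 (0.0871) for Icam1, 1.22 (0.323) for Selp, 1.03 (0.101) for Selplg and -0.22 (0.253) for Pecam1. That setting called 1 member and 645 genes, against 6 members and 6319 genes. Pecam1 was also lost with no filter on low counts (-0.25, adjusted p = 0.0947) and with batch 1 libraries only (-0.32), and leaving out 1 library gave -0.34 to -0.20. With the replicate number as a replicate block, Selp gave 1.51 (adjusted p = 0.0854) and Pecam1 -0.18 (adjusted p = 0.128), 4604 genes were called, and Sele was not among the tested genes. That fit held saline replicates 1 to 5 and bleomycin replicates 1 to 5, of which only replicate 5 was in batch 1. It thus mostly set batch 2 bleomycin against saline. Same-numbered libraries did not deviate together (correlations -0.349 to 0.0406, and 0 of 5 saline libraries correlated best with their own number), so the block marks only a number.

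In batch 2 against batch 1 bleomycin, 343 genes were called, against 737 with DESeq2, 102 with limma-voom, 160 with bleomycin libraries only and 148 to 1093 on leaving out 1 library (1093 without bleomycin replicate 8). Selplg, at -0.02 with no call, changed sign under RLE factors (0.0010), with bleomycin libraries only (0.0035) and with replicate 8 counted as saline (0.0275), and ranged over -0.11 to 0.0277 on leaving out 1 library. The cause of these shifts was not tested. In batch 1 against saline, 3586 genes were higher and 2733 lower; these were 3166 and 3028 under RLE, 3082 and 3116 under upper quartile and 3433 and 3512 under DESeq2. Each scaling moved the median of all genes by less than 0.1. The Retnlg call and both mesothelial calls were lost with batch 1 libraries only and with bleomycin replicate 8 counted as saline. Retnlg was also lost with limma-voom, with the replicate block, and without bleomycin replicate 6 or saline replicate 1, 4 or 5. Both mesothelial calls were also lost with no filter on low counts and without saline replicate 3 or 4. The Msln call was also lost without bleomycin replicate 8, and the Upk3b call under some other settings.

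Counts were lowest for Sele, with 0 to 85 per library. Selp had 162 to 675 counts in batch 1 bleomycin and a coefficient of variation of 46.2%. The part of depth in its error was not tested. Each library was 1 section.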

Other observations

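After each group's mean was taken from the log2 CPM of its libraries, some members varied together within groups over the 13 libraries. Pearson's r was 0.84 for Icam2 and Pecam1, 0.71 for Selp and Selplg, and 0.69 for Icam1 and Icam2. It was 0.57 for Vcam1 and Selplg, 0.55 for Vcam1 and Selp, and 0.52 for Sele and Selp. Some other pairs were negative, the lowest at -0.35 for Selp and Pecam1. Before centring, r for Icam1 and Icam2 was -0.66, opposite in sign, since the groups themselves moved apart. These values describe 13 libraries that share treatment, batch and depth, and carry no p. Bleomycin replicate 5 had the lowest Vcam1, Selp, Selplg and Sele of batch 1, and also the lowest Col1a1 of all bleomycin libraries at 928 CPM, whereas replicate 1 had the highest Col1a1 at 4061 CPM and the highest Vcam1, Selp, Sele and Selplg of batch 2. Replicate 8 departed from this in part. It had the highest Col1a1 of batch 1 at 3982 CPM and the highest Selplg there at 46.9 CPM. However, replicate 6 had the highest Vcam1 and Selp of batch 1 and replicate 7 the highest Sele.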
